A study of Mus musculus with 4 samples.

Results

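Small nucleolar RNA (snoRNA) host genes are transcribed as long RNAs whose introns hold snoRNAs. The members were the 8 gene symbols Gas5, Snhg1, Snhg3, Snhg5, Snhg6, Snhg7, Snhg8 and Snhg12, taken as the rows of the deposited table with exactly these names. All 8 were found among 23309 genes listed, and only the spliced host transcript was counted as a member, not the separate rows of the snoRNAs.

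RNA sequencing compared embryonic stem cells of the mouse strain 129/Ola, pluripotent cells grown on gelatin with serum and leukemia inhibitory factor. The groups were Chd2mut/mut cells, which carry a mutation of Chd2 on both alleles and are called Chd2KO in the sample titles, and wild-type (WT) cells. Chd2 encodes a chromodomain helicase that moves nucleosomes with the energy of ATP. Each genotype had 2 libraries of total RNA, marked as lot 1 and lot 2, and the table holds 1 FPKM value per gene and genotype over these libraries. FPKM is a count of sequenced fragments scaled by transcript length and by the mapped fragments of the library. No standard deviation can be given, the depth is unknown, and the sources used here do not give the kind of mutation, how the lines are related, or whether each is 1 clone. Significance is taken from the authors' deposited table, in which the genes with a q-value under 0.05, and no others, are called.

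When a host transcript is spliced, its introns are cut out and trimmed to snoRNAs, which enter ribonucleoprotein particles. Box C/D snoRNAs guide 2′-O-methylation, and box H/ACA snoRNAs guide pseudouridylation, of ribosomal and other RNAs. The exons of the noncoding hosts mostly lack a long conserved reading frame. Many of these hosts begin with a pyrimidine tract like that of ribosomal protein mRNAs (a 5′ TOP), and their spliced RNA is short-lived because translation of its short reading frames sends it to nonsense-mediated decay (NMD). Gas5 was named for its accumulation in growth-arrested cells, and human GAS5 has been studied as a regulator of self-renewal in embryonic stem cells.

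Start sites of the hosts are shown because most of those listed carry features that the choice of genes did not use. RefSeq sequences of build GRCm38.p6 were matched by symbol for 7 of the 8 genes, and Snhg6 had no entry. Each window runs from 45 bases before the annotated first base of the transcript to 30 bases from it on, in the direction of transcription. Capitals mark the letters TATA, which read the same on both strands, and each tract of a C followed by at least 4 pyrimidines on the transcribed strand that begins within 10 bases of the start.
Gas5, chr1:161035121-161035195, plus strand: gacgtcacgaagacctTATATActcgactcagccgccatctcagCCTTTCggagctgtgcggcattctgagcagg
Snhg1, chr19:8723442-8723516, plus strand: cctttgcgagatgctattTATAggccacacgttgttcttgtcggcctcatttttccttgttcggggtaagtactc
Snhg3, chr4:132353657-132353731, minus strand: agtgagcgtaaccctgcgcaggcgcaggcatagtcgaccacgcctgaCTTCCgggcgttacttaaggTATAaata
Snhg5, chr9:88522868-88522942, minus strand: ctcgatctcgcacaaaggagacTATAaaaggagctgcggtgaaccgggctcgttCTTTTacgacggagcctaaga
Snhg7, chr2:26640215-26640289, minus strand: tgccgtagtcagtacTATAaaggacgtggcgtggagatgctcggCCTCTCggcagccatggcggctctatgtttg
Snhg8, chr3:123508307-123508381, minus strand: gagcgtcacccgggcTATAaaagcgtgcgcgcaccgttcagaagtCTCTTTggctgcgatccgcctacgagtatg
Snhg12, chr4:132308633-132308707, plus strand: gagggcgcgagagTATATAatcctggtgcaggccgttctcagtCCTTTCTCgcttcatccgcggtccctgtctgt

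TATA lay within the 50 bases before the start in 6 of these 7 windows, against 9.08% of the 32851 annotated starts of the same length. In Snhg3 it lay on the other side of the annotated start, at base 23 of the transcript. The pyrimidine tract began within 10 bases of the start in 6 of 7 windows, against 29.7% of all starts, and the first base itself was a C followed by at least 4 pyrimidines in Gas5, Snhg7 and Snhg8, 3 of 7, against 2.51% of all starts. The tracts in capitals of Gas5 and Snhg7 begin 1 base earlier. RefSeq lists a second start for Gas5, farther upstream, which has neither feature. It was left out because it lacks TATA, and the shares over all starts involved no such choice. Over all 8 starts listed for these genes, TATA and the tract within 10 bases were each found in 6, and the tract at the first base in 3. These windows and motifs were chosen with the sequences in view, and a match of letters is a description, not a mapped site.

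The host transcripts were well expressed in both genotypes, and all 8 had the higher value in Chd2mut/mut cells. None was called in the authors' deposited table, but calls were rare there. Among the 11276 genes whose q-value lay below 1, 0.718% were called in either direction and 0.257% as higher in the mutant. With so few calls, the lack of a call does not set 8 genes apart from the rest. The same share applies to the counts of calls in the gene lists below. Their changes ran from 1.07-fold for Snhg1 to 1.31-fold for Snhg7, with a median of 1.21-fold. On the scale of log2(FPKM + 1), mutant minus wild type, the median was 0.27, against -0.0012 over the 10766 genes whose level averaged 1 FPKM or more over the genotypes, here named the genes kept. All 8 hosts passed this filter. Of the genes kept, 49.6% had a change above 0, against 8 of 8 hosts. The hosts were chosen with earlier results of these data known, so this contrast is a description and not a test.

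**Figure D1:**
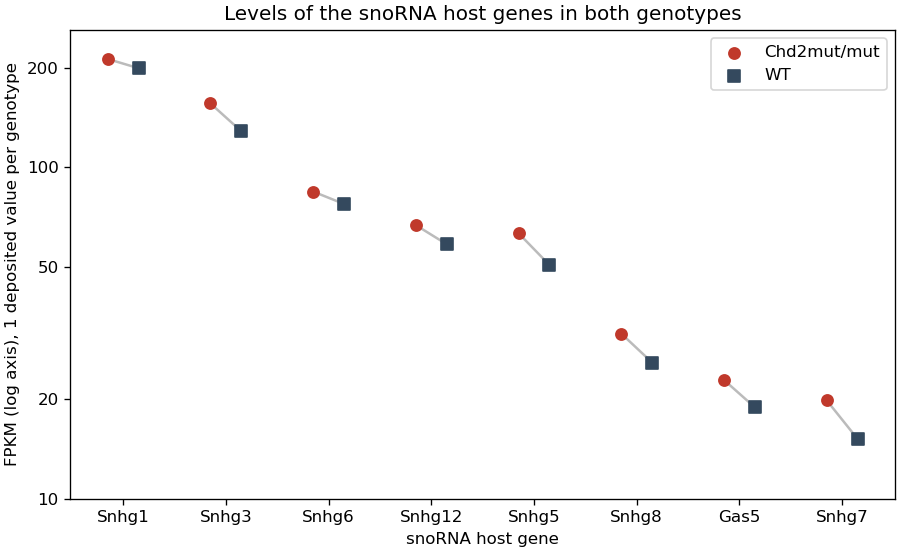
FPKM on a log axis for each host gene, with the Chd2mut/mut value left of the WT value and 1 deposited value per genotype, so no error bars. The mutant value is the higher of the pair for all 8 genes, and the order of the genes by level is the same in both genotypes.

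Snhg1, which holds Snord22 and 7 further annotated snoRNAs, was the most abundant host. Its level was 213 FPKM in Chd2mut/mut cells and 199 FPKM in WT cells. The ratio was 1.07, the smallest of the 8, with a q-value of 0.998 in the authors' deposited table. Snhg1 made up 32.3% of the summed FPKM of the hosts in the mutant and 34.7% in the wild type.

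Snhg3, host of the H/ACA RNAs Snora73a and Snora73b (also called U17), was the next in level. It was at 156 FPKM in Chd2mut/mut cells and 129 FPKM in WT cells. This was the largest difference of a host in absolute terms, 27.4 FPKM, and a ratio of 1.21, with a q-value of 0.734 in the authors' deposited table. The change of Snhg3, 0.28 on the log2(FPKM + 1) scale, was reached by 5.42% of the genes kept, against 26.8% for that of Snhg1. These shares rank single values that have no error, so they do not show that the changes of these hosts differ.

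Snhg6, host of the C/D RNA Snord87, was at 84.6 FPKM in Chd2mut/mut cells and 77.6 FPKM in WT cells. Snhg12, which holds 4 annotated snoRNAs of both classes, was at 67.0 FPKM in Chd2mut/mut cells and 58.6 FPKM in WT cells. Snhg5, which holds Snord50a and Snord50b, was at 63.3 FPKM in Chd2mut/mut cells and 50.8 FPKM in WT cells. Of these 3 hosts of middle level, Snhg5 had a ratio of 1.25, Snhg12 of 1.14 and Snhg6 of 1.09, with q-values of 0.600, 0.950 and 0.998 in the authors' deposited table.

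Snhg8, host of the H/ACA RNA Snora24, was at 31.5 FPKM in Chd2mut/mut cells and 25.8 FPKM in WT cells. Gas5, which holds 8 annotated snoRNAs, was at 22.8 FPKM in Chd2mut/mut cells and 18.9 FPKM in WT cells. Snhg7, host of Snora17 and Snora43, was the least abundant, at 19.8 FPKM in Chd2mut/mut cells and 15.2 FPKM in WT cells. The ratios of these 3 hosts of lower level were 1.22 for Snhg8, 1.21 for Gas5 and 1.31 for Snhg7, with q-values of 0.793, 0.709 and 0.697 in the authors' deposited table. The change of Snhg7, 0.37 on the log2(FPKM + 1) scale, was the largest of the 8 and was reached by 2.74% of the genes kept.

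The order by level, Snhg1, Snhg3, Snhg6, Snhg12, Snhg5, Snhg8, Gas5 and Snhg7, held in both genotypes. Without values per library, it cannot be said which neighbours in this order differ beyond their spread, and in the mutant Snhg12 and Snhg5 were only a few FPKM apart. The highest host was 10.7 times the lowest in Chd2mut/mut cells and 13.2 times in WT cells. Summed over the 8 hosts, the level was 658 FPKM in Chd2mut/mut cells and 575 FPKM in WT cells, a ratio of 1.14, while the sum over all genes listed had a ratio of 1.004.

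**Figure D2:**
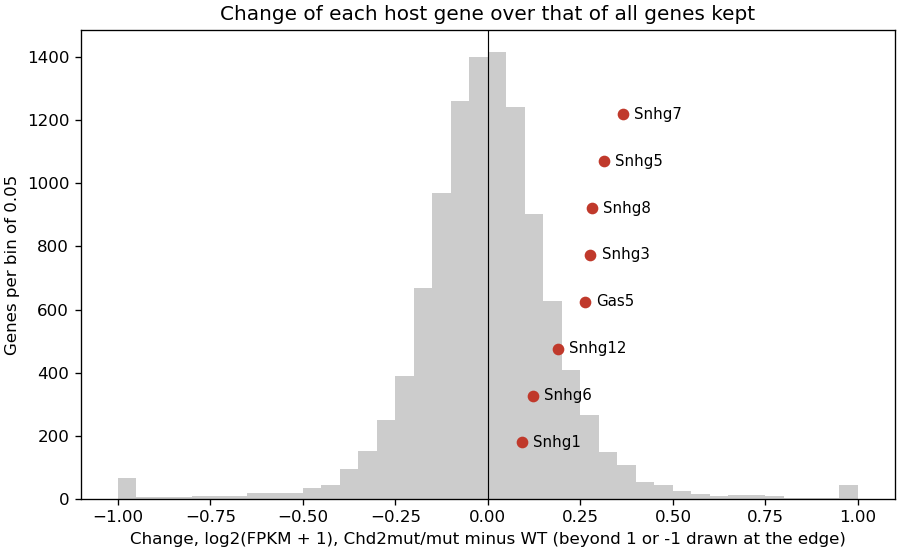
The grey bars count the genes kept by their change on the log2(FPKM + 1) scale, Chd2mut/mut minus WT, in bins of 0.05. The red points mark the 8 hosts at their change, with a height that only separates the labels, and they lie between 0.09 for Snhg1 and 0.37 for Snhg7.

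The hosts were also read against genes of like level and against the size of change that the authors' test called. A ratio of at least 1.2, a fold chosen after the values were seen, was reached by Gas5, Snhg3, Snhg5, Snhg7 and Snhg8, 5 of 8, against 9.74% of the genes kept. Of the 3635 genes kept whose mean level lay within the range of the hosts, 3.27% reached this ratio, 39.2% had a change above 0, and the median change was -0.03. The share of genes called in the authors' deposited table was 0.718% in either direction, 0.257% higher and 0.461% lower, among the 11276 genes with a q-value under 1. Within the hosts' range of level 21 genes were called, 7 of them higher in Chd2mut/mut cells. The smallest change among the called genes of that range was 1.42-fold, for Pdzd4, which is larger than the 1.31-fold of Snhg7.

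The genotype labels and the cell type were checked by Chd2 and by marker genes. Chd2 was at 5.69 FPKM in Chd2mut/mut cells and 10.2 FPKM in WT cells, 55.9% of the wild-type level, with a q-value of 0.0103 in the authors' deposited table, so its RNA was still detected in the mutant. All 10 markers of pluripotent stem cells were kept, from Klf4 at 18.1 and 16.7 FPKM to Dppa5a at 4380 and 3844 FPKM in Chd2mut/mut and WT cells, and none was called. Of these markers 8 had a change above 0, with a median of 0.15. Nanog was at 150 FPKM in Chd2mut/mut cells and 114 FPKM in WT cells, a change of 0.39 and a q-value of 0.293 in the authors' deposited table, which is a larger change and a lower q-value than those of any of the 8 hosts. Sox2 was at 222 FPKM in Chd2mut/mut cells and 178 FPKM in WT cells, a change of 0.32 and a q-value of 0.496 in the authors' deposited table. Of 8 fibroblast markers 7 were below 0.1 FPKM in both genotypes, with Col3a1, Lum and Postn listed at 0 in both, and Thy1, which other cells also express, was at 11.5 FPKM in Chd2mut/mut cells and 14.2 FPKM in WT cells. Fewer cells of a type and less RNA per cell cannot be told apart in such bulk samples.

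The snoRNAs within the hosts have rows of their own for 10 of the 28 snoRNAs that RefSeq annotates inside the 8 genes, and these rows did not follow their hosts in 1 direction. Of the 9 rows above 0 in a genotype, 5 were above and 4 below 0 in change, and none was called, with a lowest q-value of 0.931 in the authors' deposited table. FPKM is unstable for transcripts as short as these, 56 to 139 bases by their RefSeq spans. The sequences of 4 of them, GENCODE transcripts of build GRCm38, show what the introns carry. They were picked from the rows with large differences or levels, and Snord22, which also differed greatly, is not shown. Their GENCODE spans are longer than their RefSeq spans, with 130 against 62 bases for Snora61 and 74 against 56 bases for Snord99. Capitals mark the C box and the D box in the 3 C/D RNAs and the ACA box, 3 bases from the end, in Snora61.
Snord47, intron of Gas5, chr1:161038082-161038158, plus strand: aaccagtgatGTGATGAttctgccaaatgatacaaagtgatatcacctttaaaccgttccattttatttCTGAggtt
Snord87, intron of Snhg6, chr1:9942463-9942549, minus strand: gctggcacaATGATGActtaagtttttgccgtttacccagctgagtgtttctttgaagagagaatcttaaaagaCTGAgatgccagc
Snord99, intron of Snhg12, chr4:132310691-132310764, plus strand: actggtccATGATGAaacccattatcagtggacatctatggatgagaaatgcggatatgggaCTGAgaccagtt
Snora61, intron of Snhg12, chr4:132310240-132310369, plus strand: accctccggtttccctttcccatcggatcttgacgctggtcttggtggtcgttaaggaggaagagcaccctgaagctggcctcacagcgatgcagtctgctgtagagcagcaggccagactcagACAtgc

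Within Snhg12 alone the rows went both ways. Snora61 was listed at 1027 FPKM in Chd2mut/mut cells and 238 FPKM in WT cells, while Snord99 was at 190 FPKM in Chd2mut/mut cells and 422 FPKM in WT cells. The other rows of this host were Snora16a, at 14.4 FPKM in Chd2mut/mut cells and 8.32 FPKM in WT cells, and Snora44, at 8.22 FPKM in Chd2mut/mut cells and 14.8 FPKM in WT cells. Thus 2 rows of 1 host had the higher value in the mutant and 2 had the lower, while the spliced host had a ratio of 1.14.

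Rows of the other hosts also went both ways, with changes of very different size. Snord22 in Snhg1 was listed at 259 FPKM in Chd2mut/mut cells and 61.6 FPKM in WT cells. Snord47 in Gas5 was at 737 FPKM in Chd2mut/mut cells and 486 FPKM in WT cells. Snord87 in Snhg6 was listed at 0 in Chd2mut/mut cells and at 56.7 FPKM in WT cells, although its host differed by only 1.09-fold. Snora43 and Snora17, both in Snhg7, were at 49.7 and 15.8 FPKM in Chd2mut/mut cells and at 40.1 and 18.7 FPKM in WT cells, and Snora24 in Snhg8 was listed at 0 in both genotypes. Over the whole table, 58 of 114 rows of snoRNAs and small Cajal body RNAs were above 0 in a genotype, 32 of them above and 26 below 0 in change, and 35 changed by at least 1 on the log2(FPKM + 1) scale, with no call.

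**Figure D3:**
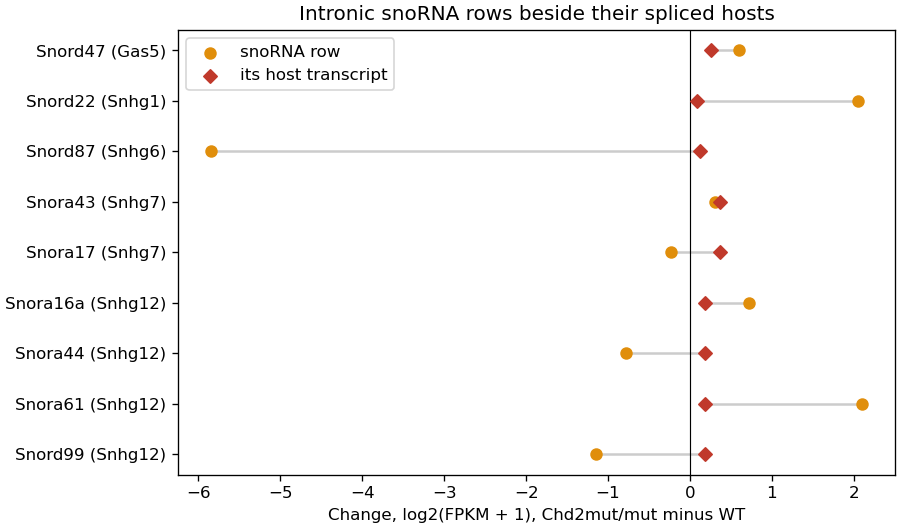
Change on the log2(FPKM + 1) scale, Chd2mut/mut minus WT, of 9 intronic snoRNA rows (circles) and of the spliced host of each (diamonds). The hosts lie between 0.09 and 0.37, and the snoRNA rows lie between -5.85 for Snord87 and 2.11 for Snora61.

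Genes beside the hosts on the chromosome mostly lay on the other side of 0. The genes that overlap a host in GENCODE and the nearest listed gene on each side came to 18 genes, in the gene order of GRCm38, of which 11 were kept. Of these, 9 were below and 2 above 0, with a median change of -0.08, and none was called, beside 50.4% of all genes kept below 0. Genes kept within the hosts' range of level also leaned below 0, with 39.2% above 0 and a median of -0.03. The labels do not say that the library kit kept strand, so reads of genes that overlap on opposite strands cannot be told apart. Where a gene overlaps a host on the same strand, strand would not separate the reads either.

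The overlapping partners had values as follows. Rcc1, the chromatin-bound exchange factor of Ran, overlaps Snhg3 on the same strand in GENCODE, and was at 123 FPKM in Chd2mut/mut cells and 136 FPKM in WT cells. Zbtb37, a zinc finger gene that overlaps Gas5 on the opposite strand, was at 0.830 FPKM in Chd2mut/mut cells and 1.01 FPKM in WT cells. Mcmdc2, which acts in meiotic recombination and overlaps Snhg6 on the opposite strand, was at 1.04 FPKM in Chd2mut/mut cells and 1.01 FPKM in WT cells. Rcc1 thus had the lower value in the mutant where Snhg3 had the higher one, though reads that they share cannot be assigned by strand. Zbtb37 likewise had the lower value where Gas5 had the higher one, but it averaged below 1 FPKM and was not among the genes kept. Mcmdc2 was near 1 FPKM in both genotypes.

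Of the kept flanking genes without overlap, Sgk3 alone was above 0. Slc3a2, the heavy chain of amino acid transporters, lies on one side of Snhg1 and was at 60.7 FPKM in Chd2mut/mut cells and 69.0 FPKM in WT cells. Wdr74, a ribosome assembly factor, lies on the other side and was at 149 FPKM in Chd2mut/mut cells and 172 FPKM in WT cells. Syncrip, an RNA-binding protein gene beside Snhg5, was at 85.8 FPKM in Chd2mut/mut cells and 96.9 FPKM in WT cells. Trnau1ap, which lies between Snhg12 and Snhg3 and serves selenocysteine incorporation, was at 44.9 FPKM in Chd2mut/mut cells and 45.1 FPKM in WT cells. The 5 further kept neighbours ran from -0.17 for Zfp949 to 0.25 for Sgk3, a kinase gene beside Snhg6 that was at 1.45 FPKM in Chd2mut/mut cells and 1.07 FPKM in WT cells.

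**Figure D4:**
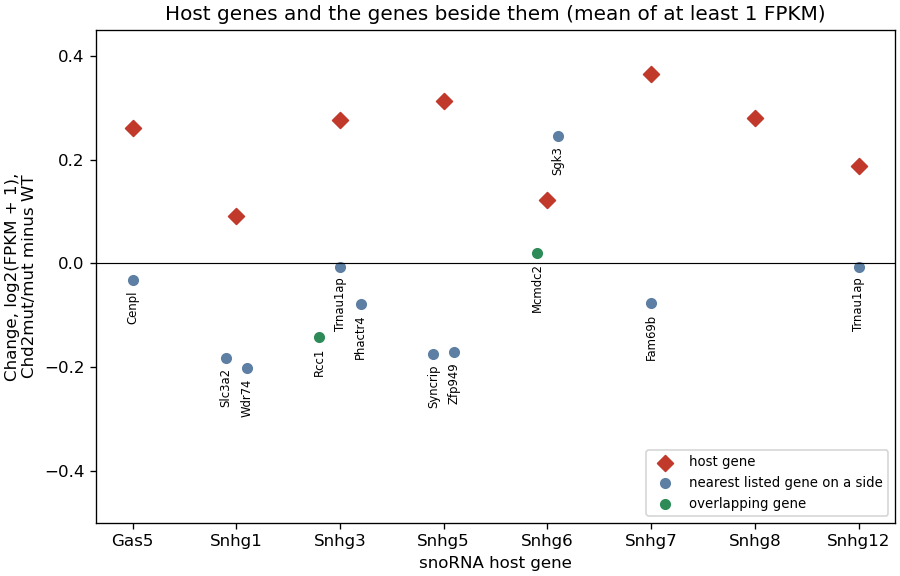
Change on the log2(FPKM + 1) scale, Chd2mut/mut minus WT, of each host (diamond) and of its overlapping and nearest listed genes among the genes kept (circles). The hosts lie above 0, and 9 of the 11 other genes lie below 0, with Sgk3 and Mcmdc2, both beside Snhg6, above it.

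Other noncoding snoRNA hosts, found by current symbol or RefSeq synonym, gave 16 rows, of which 14 were kept. Of these, 11 were above and 3 below 0, with a median change of 0.13 and no call. Snhg4 was at 27.6 FPKM in Chd2mut/mut cells and 19.8 FPKM in WT cells, a ratio of 1.39. With a q-value of 0.187 in the authors' deposited table, it came nearest to a call among all noncoding hosts. Zfas1, listed under an older name, was at 150 FPKM in Chd2mut/mut cells and 110 FPKM in WT cells, a ratio of 1.36, with a q-value of 0.452 in the authors' deposited table. Snhg10 was at 5.35 FPKM in Chd2mut/mut cells and 3.84 FPKM in WT cells.

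The 3 kept rows of this list below 0 were named after their values were seen, except Snhg9. Snhg9 was at 11.5 FPKM in Chd2mut/mut cells and 23.6 FPKM in WT cells, with a q-value of 0.962 in the authors' deposited table. Snhg15 was at 60.4 FPKM in Chd2mut/mut cells and 76.6 FPKM in WT cells, and 1 of 2 rows of Snhg14, the long host in the imprinted Prader-Willi region, was at 4.75 FPKM in Chd2mut/mut cells and 5.34 FPKM in WT cells. A direction shared by every noncoding host is therefore not seen in the table. The 162 kept genes of RefSeq's lncRNA class that belong to neither host list had a median change of 0.05, with 96 above 0 and none called.

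Protein-coding genes that hold an annotated snoRNA in their span on the same strand gave 62 rows, 61 of them kept, with 39 above and 22 below 0, a median change of 0.05 and no call. Of the 62, 24 encode ribosomal proteins, and without these the 37 kept had 18 above and 19 below 0 and a median of -0.01. Rpl13a was at 3773 FPKM in Chd2mut/mut cells and 3223 FPKM in WT cells, while Ncapd2, a condensin subunit, was at 62.6 FPKM in Chd2mut/mut cells and 73.9 FPKM in WT cells.

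Genes known for the same pyrimidine tract had medians nearer 0 than that of the hosts. Over the 76 genes for ribosomal proteins the median was 0.10, with 66 above and 10 below 0, and no call. Rpl37a was at 2778 FPKM in Chd2mut/mut cells and 2071 FPKM in WT cells, with a change of 0.42. Rpl26 was listed at 254 FPKM in Chd2mut/mut cells and 0.0795 FPKM in WT cells, with a q-value of 0.959 in the authors' deposited table. All other genes of this list lay between -0.06 for Rpl24 and 0.42 for Rpl37a, and the values of Rpl26 are not read as a change. Of 21 other 5′ TOP genes 14 were above and 7 below 0, with a median of 0.05. The largest change above 0 on the log2(FPKM + 1) scale was that of Hnrnpa1, an RNA-binding protein gene. It was at 290.3 FPKM in Chd2mut/mut cells and 216 FPKM in WT cells. This change of 0.42 exceeds that of each host, with a q-value of 0.998 in the authors' deposited table. The translation factor Eif4b was at 256 FPKM in Chd2mut/mut cells and 214 FPKM in WT cells, and Eef1a1 at 8853 FPKM in Chd2mut/mut cells and 7683 FPKM in WT cells. The only call of this list was Vim, which encodes vimentin and fell to 76.3 FPKM in Chd2mut/mut cells, against 158 FPKM in WT cells, with a q-value of 0.0103 in the authors' deposited table.

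Proteins that bind snoRNAs or assemble them into particles lay on the other side. Of 22 such genes, all kept, 20 were below and 2 above 0, with a median change of -0.11 and no call, and the lowest was -0.22. Among all genes kept 50.4% were below 0. Genes kept within the hosts' range of level leaned the same way, with 39.2% above 0 and a median of -0.03. Ruvbl1, an ATPase of the assembly complex, was at 136 FPKM in Chd2mut/mut cells and 158 FPKM in WT cells. Nolc1, a nucleolar chaperone of snoRNPs, was at 139 FPKM in Chd2mut/mut cells and 160 FPKM in WT cells. Of the core proteins, given here for their role after their values were seen, the methyltransferase Fbl was at 534 FPKM in Chd2mut/mut cells and 597 FPKM in WT cells. Its C/D partner Nop58 was at 265 FPKM in Chd2mut/mut cells and 285 FPKM in WT cells. The 2 genes above 0 were Nop56, also of the C/D particle, at 267 FPKM in both genotypes, and the pseudouridine synthase Dkc1, at 125 FPKM in Chd2mut/mut cells and 123 FPKM in WT cells.

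No gene of the decay machinery was called, beside 0.718% of the 11276 genes whose q-value lay below 1. Of 21 NMD factors 13 were above and 8 below 0, with a median change of 0.10 and a highest change of 0.24. The exonuclease Xrn1 was at 4.58 FPKM in Chd2mut/mut cells and 3.72 FPKM in WT cells, Pnrc2 at 30.2 FPKM in Chd2mut/mut cells and 26.6 FPKM in WT cells, and Smg8, a regulator of the kinase Smg1, at 17.9 FPKM in Chd2mut/mut cells and 20.5 FPKM in WT cells. The stress and growth genes known as decay targets went both ways. Of 8 listed and 7 kept, 3 were above and 4 below 0, with a median of -0.27 and no call.

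The decay targets above 0 were Atf4, at 137 FPKM in Chd2mut/mut cells and 114 FPKM in WT cells, Asns, at 118 FPKM in Chd2mut/mut cells and 103 FPKM in WT cells, and Trib3, at 7.90 FPKM in Chd2mut/mut cells and 6.85 FPKM in WT cells. Those below 0 were Ddit3, at 3.43 FPKM in Chd2mut/mut cells and 5.22 FPKM in WT cells, Gadd45a, at 16.9 FPKM in Chd2mut/mut cells and 22.0 FPKM in WT cells, and Gadd45b, at 16.9 FPKM in Chd2mut/mut cells and 20.7 FPKM in WT cells. The fourth was Chac1, near 1 FPKM in both, and Atf3 was below 0.2 FPKM in both. The median of this list changed sign, to 0.18, when a mean of at least 5 FPKM was required.

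**Figure D5:**
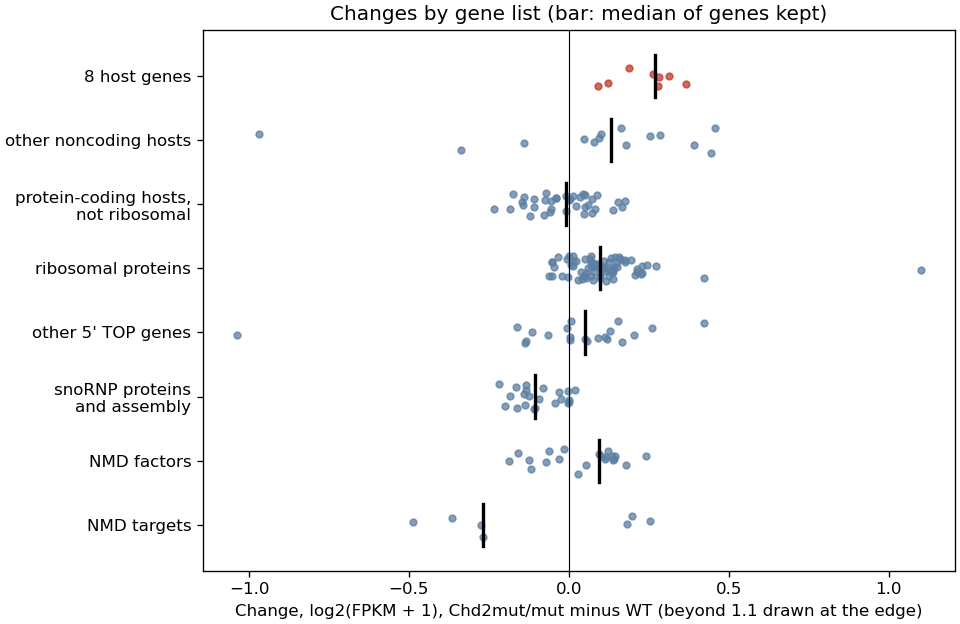
Change on the log2(FPKM + 1) scale, Chd2mut/mut minus WT, of the genes kept in each list, with 1 point per gene and a black bar at the median. The median is 0.27 for the 8 hosts and lies between -0.27 for the NMD targets and 0.13 for the other noncoding hosts in the other lists drawn, some of which share genes.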

How the data were processed

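Total RNA of 4 libraries, 2 per genotype, was sequenced, and the authors deposited 1 FPKM value per gene and genotype. The submitters' processing notes name TopHat2 2.1.0, Cufflinks and bcl2fastq 2.17.1.14, with mm9 as the build. Not given in the sources used here are the version of Cufflinks, the annotation and the test behind the q-value. The table further holds, per the file headers, a q-value, a call and a log2 fold change of each gene. For the 8 hosts that fold change matched the plain ratio of the FPKM values within 0.001. Without values per library, the limma fit planned for that case was not run, and calls are those of the authors' deposited table. The spread behind the q-values may be technical, since no label says that the lots were separate cultures.

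From the FPKM values, log2(FPKM + 1) was computed and that of the wild type was subtracted from that of the mutant, which understates the change of low genes, in Python 3.11.15 with pandas 2.3.3. Genes averaging 1 FPKM or more were kept. Lists are described by counts and medians, with no test. Positions, synonyms and sequences are from RefSeq and GENCODE M21 on GRCm38, not mm9. One gene near a host is not reported here. The list summary was tested on simulated data. The hosts and lists were chosen with earlier results of these data known. Named genes are the hosts, Chd2, their nearest listed neighbours, called genes, and up to 4 genes per list with the largest change (all genes in lists of up to 12, except the cell type markers). Genes outside this rule were named for their role, for a small count or after their values were seen. Another pseudocount, filter and normalization were tried.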

Additional observations from a re-analysis of the deposited data

How the results depend on the processing

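All 8 hosts stayed above 0 in all 64 values under 8 other settings, between 0.09 and 0.39, with a largest shift of 0.073, for Snhg3 under quantile normalization. The settings were pseudocounts of 0.1 and 0.01, quantile normalization, the median set to 0, no filter, a minimum mean of 5 FPKM and, chosen after seeing the data, the plain ratio and equal summed FPKM. A pseudocount or a filter cannot turn a direction of a single gene, so only the rescalings bear on it. Of 152 values on the log2 scale, 150 kept their direction and moved by at most 0.1. The median of the decay targets became 0.18 under the minimum of 5 FPKM, and that of all genes kept became 0.0073 under quantile normalization. A mean of at least 5 FPKM left 18 of 29 higher and 32 of 52 lower calls, by construction. No paired analysis was possible because the table has 1 value per genotype, and for the same reason no library could be left out. The depth behind each value is unknown.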
